A study of Mus musculus with 20 samples.

Results

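The 10 genes followed here build or maintain epithelial cells, and were measured through the differentiation of mouse ES cells. They are the adherens junction cadherin Cdh1, the adhesion molecule Epcam, the tight junction claudins Cldn6 and Cldn7, the desmosome component Perp, the keratins Krt8, Krt18 and Krt19, the transcription factor Grhl2 and the splicing factor Esrp1. They were chosen by name with earlier results of these data known, and the members are the probe sets whose gene symbol on the array is one of these names. Shares of all genes given beside counts of members are therefore a description and no test of an excess. All 10 of the 10 genes were found among 18193 measured genes, read by 16 of 34945 probe sets with a single gene symbol, and each gene was represented by its brightest probe set, judged by the mean of the 20 arrays. The set did not move as a unit: in WT cells Cdh1, Epcam and Esrp1 were highest in ES cells and lowest in cultured mesoderm, whereas Krt8, Krt18 and Krt19 were lowest in ES cells and highest in cultured mesoderm.

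Wild-type (WT) ES cells of the J1 line (strain 129sv/Jae) and ES cells lacking Dnmt3a and Dnmt3b (DKO), the enzymes that place new DNA methylation, were each measured in 5 states with 2 arrays per group. Both genotypes carried Gata4GR, a form of the endoderm factor Gata4 that carries the part of the glucocorticoid receptor that binds dexamethasone (Dex), which is driven by the CAG promoter and becomes active when Dex is given. ES cells were undifferentiated, and primitive endoderm (PE) was obtained by giving these cells 100 nM Dex for 4 days in medium with LIF. Flk1(+) mesoderm cells were sorted as positive for Flk1 and PDGFRα after 4 days on type IV collagen, with no sort against E-cadherin (the product of Cdh1). Dex- and Dex+ cells were sorted mesoderm cells kept for 4 more days on type IV collagen without or with 100 nM Dex. Each genotype was represented by 1 transgenic clone (J1G4.2 for WT and 16G4.3 for DKO), so genotype and clone cannot be told apart. The arrays of Flk1(+) replicate 1 are the exception, since they came from the parental lines J1 and 16aabb, which have no transgene. No cells without Gata4GR were given Dex, so effects of Dex itself and of Gata4GR cannot be told apart.

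Epithelial cells hold together through E-cadherin at adherens junctions, claudins at tight junctions and desmosomes tied to keratin filaments. ES cells and the early embryo's epithelia share several of these genes, and Krt8 and Krt18, which pair into the first keratin filaments of the embryo, mark simple epithelia such as extraembryonic endoderm and trophoblast. When mesoderm forms, cells leave the epithelium, and transcription factors of the Snail, Zeb and Twist families, which repress Cdh1 and other junction genes, are switched on. Grhl2 activates epithelial genes, and Esrp1 directs the splicing of transcripts into their epithelial forms.

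The values are log2 RMA values, in which a difference of 1 is a 2-fold change. A change passed where the p-value of the limma fit over all 20 arrays, adjusted by Benjamini-Hochberg over all 18193 genes, was under 0.05 and its size was 2-fold or more. Genes are said to have risen or fallen, or to be higher or lower in DKO, only where the change passed, and changes are given ± the standard error of the fit. The arrays of a group came from independent experiments and correlated at 0.979 to 0.996. Genes at least 2-fold apart between the 2 arrays numbered 20 to 256 in the groups other than Flk1(+) cells, but 880 in WT and 698 in DKO Flk1(+) cells. The states carried their markers: the mean of 8 pluripotency genes was 12.06 to 12.36 in ES cells, that of 9 primitive endoderm genes was 13.09 to 13.39 in PE, and that of 5 genes of sorted mesoderm was 11.67 to 12.03 in Flk1(+) cells. These 5 include Kdr, which encodes Flk1, and Pdgfra, the genes of the proteins used for the sort. Cells of another type in a sample and a lower level in every cell cannot be told apart in these bulk measurements.

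The sequences upstream of the genes are shown because the deletion removes enzymes that methylate CpG sites and because the Snail and Zeb repressors, which are measured below, bind the E-box CACCTG. RefSeq windows (assembly GRCm38.p6) were at hand for 5 of the 10 genes. The following lines give the 250 bases before the annotated start site, 5′ to 3′ in the direction of transcription. Capitals mark matches to CACCTG on either strand (CAGGTG is its reverse complement) and to the GATA motif AGATAA.
Epcam, chr17:87635729-87635978 (plus strand): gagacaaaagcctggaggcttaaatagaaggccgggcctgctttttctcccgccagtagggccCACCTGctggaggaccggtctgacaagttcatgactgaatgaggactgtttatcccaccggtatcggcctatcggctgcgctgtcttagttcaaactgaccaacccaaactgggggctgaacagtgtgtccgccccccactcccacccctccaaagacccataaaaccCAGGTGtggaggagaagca
Cldn6, chr17:23679115-23679364 (plus strand): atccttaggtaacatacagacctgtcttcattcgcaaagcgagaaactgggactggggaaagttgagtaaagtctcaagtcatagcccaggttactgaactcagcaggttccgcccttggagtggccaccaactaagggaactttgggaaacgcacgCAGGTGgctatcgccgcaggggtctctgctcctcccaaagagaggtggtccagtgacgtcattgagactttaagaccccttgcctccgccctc
Cldn7, chr11:69964529-69964778 (plus strand): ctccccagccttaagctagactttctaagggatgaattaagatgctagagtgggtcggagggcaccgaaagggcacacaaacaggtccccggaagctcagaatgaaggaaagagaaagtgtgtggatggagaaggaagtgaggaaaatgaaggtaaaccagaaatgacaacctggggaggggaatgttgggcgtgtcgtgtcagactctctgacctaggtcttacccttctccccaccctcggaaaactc
Krt8, chr15:102004343-102004592 (minus strand): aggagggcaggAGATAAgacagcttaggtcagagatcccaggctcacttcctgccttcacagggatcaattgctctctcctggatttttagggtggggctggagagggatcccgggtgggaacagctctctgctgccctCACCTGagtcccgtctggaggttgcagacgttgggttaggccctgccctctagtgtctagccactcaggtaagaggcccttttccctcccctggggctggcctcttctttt
Krt18, chr15:102027966-102028215 (plus strand): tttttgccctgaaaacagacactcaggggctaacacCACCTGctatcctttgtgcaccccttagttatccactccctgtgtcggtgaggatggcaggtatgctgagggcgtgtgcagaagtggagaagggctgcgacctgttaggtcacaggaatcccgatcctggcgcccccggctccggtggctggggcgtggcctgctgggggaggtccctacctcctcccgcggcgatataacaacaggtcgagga
The E-box was found in the windows of Epcam (at -187 to -182 and at -19 to -14 from the start site), Cldn6 (-93 to -88), Krt8 (-111 to -106) and Krt18 (-214 to -209). The Cldn7 window printed above held none, whereas another annotated start of Cldn7 had 2 matches, at -97 to -92 and -57 to -52. Of all 32851 RefSeq windows of this length, 17.2% held this E-box. AGATAA was found for Krt8 alone, at -239 to -234, and in 9.99% of all windows. TGATAA (7.94% of all windows) and the Grhl motif in its full form AACCGGTT (0.116%) or its loose form AACNNGTT (3.64%) had no match in these windows. The number of CpG sites was 3 in the Krt8 window, 6 in the printed Cldn7 window, 8 for Epcam, 9 for Cldn6 and 12 for Krt18, against a median of 6 over all windows. These matches describe the letters of the windows, and binding and methylation were not measured in these files.

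**Figure D1:**
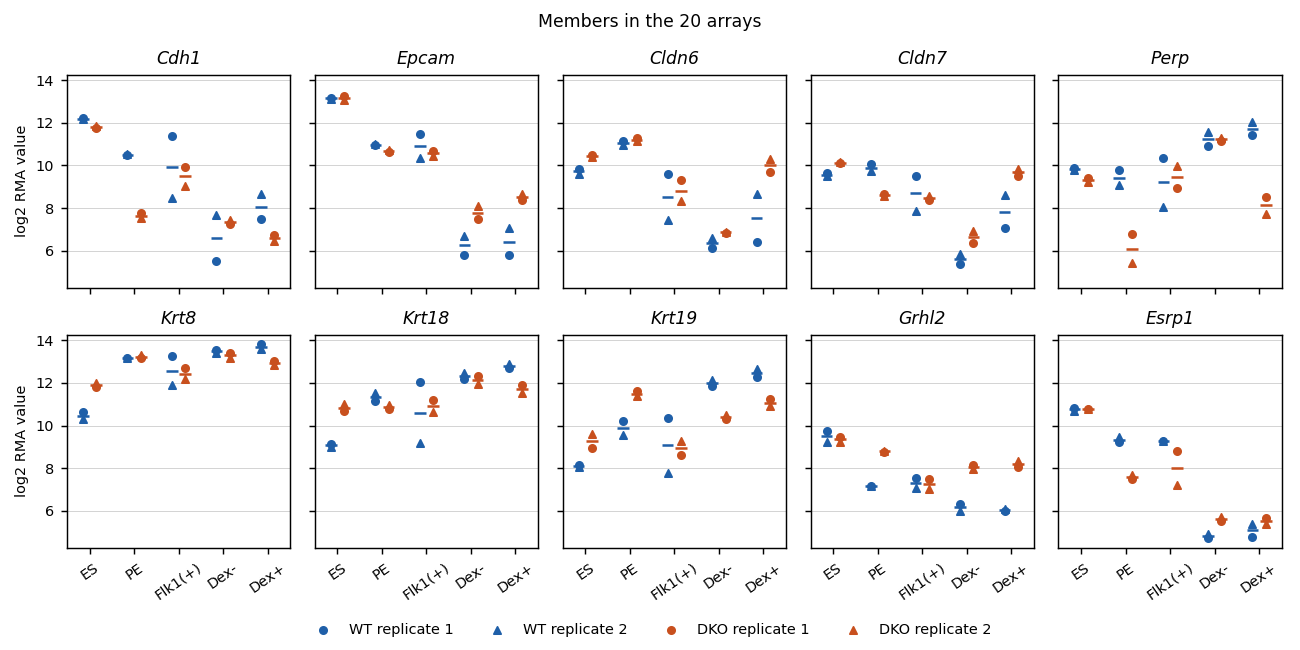
Log2 RMA values (vertical axis) of the 10 genes in ES cells, PE, Flk1(+), Dex- and Dex+ cells (horizontal axis). Points are arrays, blue for WT and orange for DKO with circles for replicate 1 and triangles for replicate 2, and lines are group means. Epcam stood at 13.08 to 13.26 in ES cells and at 5.80 to 8.68 in cultured mesoderm, whereas Krt8 stood at 10.30 to 10.63 in WT ES cells and above 11.8 in all other arrays.

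Epcam and Esrp1 had the widest ranges of group means among the 10 genes. Epcam, a homophilic adhesion molecule, was at 13.15 and 13.13 in WT ES cells against 13.26 and 13.08 in DKO ES cells. It had a mean of 10.97 in WT PE (arrays 0.05 apart), 10.64 and 10.71 in DKO PE, while Flk1(+) cells had 11.45 and 10.35 (WT) against 10.68 and 10.46 (DKO). WT Dex- cells had 5.82 and 6.70 against 7.47 and 8.08 in DKO Dex- cells, and WT Dex+ cells had 5.80 and 7.05 against 8.38 and 8.68 in DKO Dex+ cells. All ES arrays were above all others, PE and Flk1(+) cells did not separate from each other, and every cultured mesoderm array was below them. Within cultured mesoderm every DKO array was above every WT array.

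Esrp1 followed the same order on the whole. It stood at 10.85 and 10.68 in WT against 10.77 and 10.77 in DKO ES cells, at 9.22 and 9.46 in WT PE and at 9.28 and 9.28 in WT Flk1(+) cells. DKO cells were at 7.47 and 7.69 in PE and at 8.81 and 7.22 in Flk1(+) cells. In cultured mesoderm it lay between 4.72 and 5.69 in all 8 arrays, with WT at 4.72 to 5.40 and DKO at 5.37 to 5.69. Over the 10 group means Epcam and Esrp1 were correlated at r = 0.968, and Cdh1 with Esrp1 at r = 0.945.

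Cdh1 was at 12.22 and 12.16 in WT against 11.77 and 11.85 in DKO ES cells. WT PE retained 10.48 and 10.53, whereas DKO PE was at 7.76 and 7.53. The 2 arrays of WT Flk1(+) cells were far apart, at 11.38 and 8.45, with DKO at 9.93 and 9.04 between them. In Dex- cells WT was at 5.52 and 7.66 and DKO at 7.27 and 7.45, and in Dex+ cells WT was at 7.48 and 8.64 and DKO at 6.74 and 6.48. By group mean the order of Cdh1 levels was WT ES, DKO ES, WT PE, WT Flk1(+), DKO Flk1(+), WT Dex+, DKO PE, DKO Dex-, DKO Dex+ and WT Dex-. The arrays of WT PE and both Flk1(+) groups overlapped in this order, as did those of WT Dex+ with DKO PE and those of DKO Dex+ with WT Dex-.

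For the claudins the change from WT ES cells to WT PE did not pass (1.33 ± 0.64 for Cldn6 and 0.32 ± 0.46 for Cldn7). Cldn6, a claudin of embryonic epithelia, was at 11.16 and 10.96 in WT against 11.27 and 11.14 in DKO PE, beside ES levels of 9.83 and 9.61 (WT) against 10.47 and 10.39 (DKO). It was at 9.59 and 7.44 in WT against 9.31 and 8.31 in DKO Flk1(+) cells, and between 6.15 and 6.89 in the 4 Dex- arrays. WT Dex+ arrays were at 6.39 and 8.67, and DKO Dex+ arrays at 9.71 and 10.29. Cldn7, a claudin of many epithelia, was at 9.65 and 9.50 (WT) against 10.11 and 10.15 (DKO) in ES cells, 10.05 and 9.74 (WT) against 8.64 and 8.57 (DKO) in PE, and 9.52 and 7.88 (WT) against 8.38 and 8.59 (DKO) in Flk1(+) cells. WT Dex- cells had 5.37 and 5.85 against 6.37 and 6.90 in DKO Dex- cells, and at 7.04 and 8.61 in WT against 9.49 and 9.85 in DKO Dex+ cells. For both claudins DKO Dex+ cells were back at the level of ES cells or close to it, and the mean of WT Dex+ cells lay between those of WT Dex- and WT ES cells with a wide gap between the arrays.

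The keratins ran the other way. Krt8 was at 10.63 and 10.30 in WT against 11.82 and 11.99 in DKO ES cells and between 11.92 and 13.81 in all 16 other arrays. Krt18, its partner, was at 9.15 and 9.00 in WT against 10.69 and 11.005 in DKO ES cells and reached 12.71 and 12.88 in WT Dex+ cells. Krt19, a keratin of simple and ductal epithelia, was at 8.14 and 8.06 in WT against 8.94 and 9.62 in DKO ES cells, and was highest in WT Dex- (11.86 and 12.16) and WT Dex+ cells (12.28 and 12.68). DKO Dex- cells had 10.33 and 10.50, and DKO Dex+ cells 11.22 and 10.94. All 3 keratins had their highest group mean in WT Dex+ cells and their lowest in WT ES cells, and WT ES cells were separated from every other group for Krt8 and Krt18.

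Perp belonged to neither pattern. In WT cells Grhl2 was highest in ES cells and lowest in cultured mesoderm, as Epcam was, but its lowest DKO mean was in Flk1(+) cells. Perp, a membrane protein required for desmosome assembly and a target of p53, was at 9.88 and 9.76 in WT against 9.40 and 9.22 in DKO ES cells, with WT PE at 9.76 and 9.09. DKO PE was at 6.78 and 5.41, the lowest group. Flk1(+) cells were at 10.36 and 8.04 (WT) against 8.95 and 10.00 (DKO), Dex- cells at 10.89 and 11.55 (WT) against 11.15 and 11.31 (DKO), WT Dex+ cells at 11.41 and 12.03 and DKO Dex+ cells at 8.53 and 7.73. The DKO groups given Dex had the lowest means, DKO PE apart from all others and DKO Dex+ cells overlapping WT Flk1(+) cells. Grhl2 was at 9.76 and 9.25 in WT against 9.48 and 9.23 in DKO ES cells. It was at 7.16 and 7.15 in WT but 8.78 and 8.82 in DKO PE, at 7.55 and 7.07 (WT) against 7.48 and 7.05 (DKO) in Flk1(+) cells, at 6.33 and 6.01 (WT) against 8.17 and 7.97 (DKO) in Dex- cells, and at 6.02 and 6.07 (WT) against 8.04 and 8.33 (DKO) in Dex+ cells. In 3 of the 5 states the DKO arrays were all above the WT arrays by more than the spread of either pair.

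The range of the group means was 3.23 (Krt8) to 6.91 (Epcam), which lay at percentile 92.7 for Krt8 and 99.6 for Epcam of that range over all genes, with the other 8 between. As a description over 10 group means, which share arrays and states, Cdh1, Epcam and Esrp1 were correlated with each other at 0.866 to 0.968, Cldn6 with Cldn7 at 0.874, and the keratins with each other at 0.829 to 0.901. Epcam and Krt18 were at r = -0.890. Perp had r of -0.800 with Cldn6 and 0.443 with Krt18, its extremes within the set. Among 3441 genes with group means at least 4-fold apart, the 3 most like Esrp1 were Zscan10 (r = 0.985), Pou5f1 (0.982) and Tmem30b (0.979), and those most like Cdh1 were Dyrk3 (0.967), Tmem30b (0.966) and Pou5f1 (0.964), the last a defining factor of pluripotent cells. Epcam was most like Taf5, Nol9 and Orc5 (0.985 to 0.986). Krt8 was most like Ccn1 (0.968), Krt18 most like Nfia (0.965) and Krt19 most like Mtmr10 (0.954). Cldn6 was most like Clstn1 (0.974), Cldn7 most like Tuba4a (0.963), Perp most like Cmip (0.956) and Grhl2 most like Plekhd1 (0.961).

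**Figure D2:**
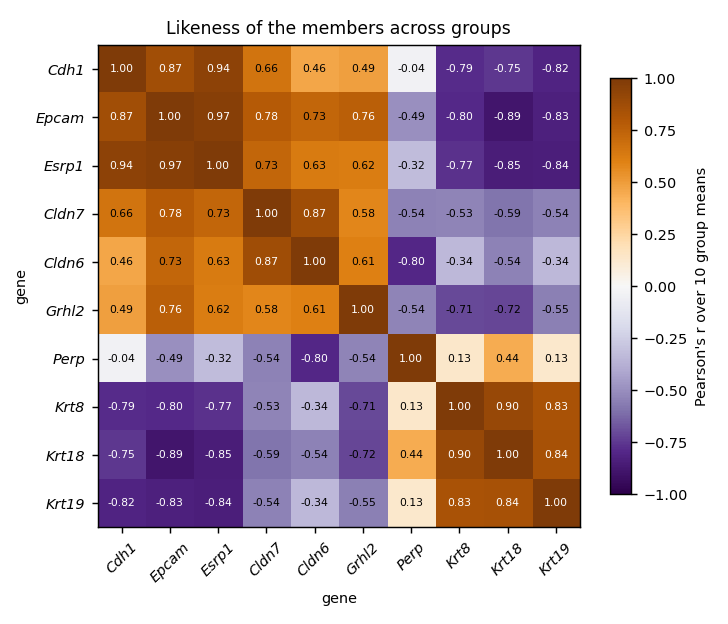
Pearson's r over the 10 group means for each pair of the 10 genes (both axes), from purple (-1) to orange (1). Cdh1, Epcam and Esrp1 form a block of 0.866 to 0.968 and the keratins a block of 0.829 to 0.901, and the values between these blocks lie between -0.890 and -0.751.

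Not all probe sets of a gene gave the same values. Each of 7 genes has 1 probe set on this array. The 3 probe sets of Krt8 had like changes, for example 2.57 to 2.72 in WT PE. For Epcam the other probe set had a mean of 9.02 over the 20 arrays, against 9.84, and hardly moved (-0.05 in WT PE and -0.10 between DKO and WT Dex+ cells). The 3 other probe sets of Grhl2 were dimmer (means of 4.74 to 7.11, against 7.79) and did not show its pattern (-0.19 to -0.04 in WT PE, and no more than 0.02 between DKO and WT Dex+ cells). Every statement on Grhl2 therefore rests on 1 of its 4 probe sets and every statement on Epcam on 1 of 2, and which transcripts the others read was not examined.

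**Figure D3:**
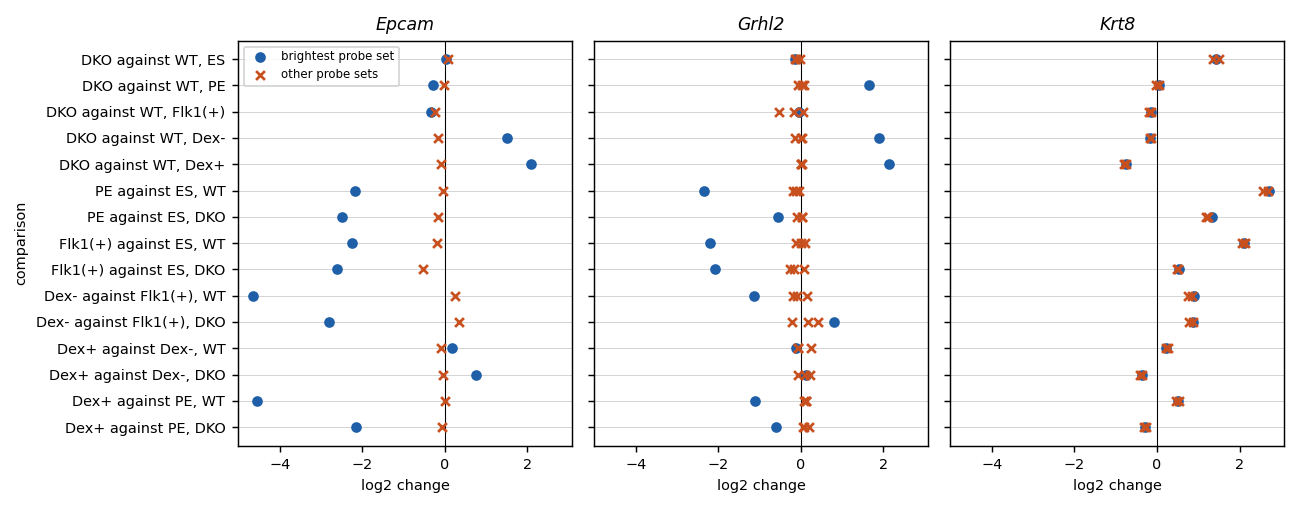
Log2 change (horizontal axis) of each probe set of Epcam, Grhl2 and Krt8 in the 15 comparisons of groups (vertical axis). Blue circles are the brightest probe set, which stands for the gene, and orange crosses the others: those of Krt8 lie on the circles, and those of Epcam and Grhl2 stay near 0, as at -0.05 against -2.17 for Epcam in WT PE.

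The first step asked how the set responded when ES cells were given Dex and became PE. In WT cells 3 of the 10 genes rose in PE and 3 fell, where 14.2% of all genes passed (7.68% higher and 6.55% lower). The keratins Krt8 (2.72 ± 0.30, adjusted p = 6.59e-06), Krt18 (2.28 ± 0.56) and Krt19 (1.77 ± 0.55) rose together, and Epcam (-2.17 ± 0.39), Grhl2 (-2.35 ± 0.21) and Esrp1 (-1.42 ± 0.35) fell. In DKO cells 2 genes rose and 5 fell, where 16.3% of all genes passed (8.13% higher and 8.18% lower). Krt19 (2.22 ± 0.55) and Krt8 (1.32 ± 0.30) rose, and Cdh1 (-4.16 ± 0.74), Perp (-3.21 ± 0.60), Esrp1 (-3.19 ± 0.35), Epcam (-2.49 ± 0.39) and Cldn7 (-1.52 ± 0.46) fell. The corresponding changes in WT cells, none of which passed, were -1.69 for Cdh1, -0.40 for Perp and 0.32 for Cldn7. Of 52 measured epithelial genes listed beside the 10, 4 rose and 7 fell in WT and 5 rose and 11 fell in DKO. Grhl1, a relative of Grhl2 (-2.84 in WT and -3.38 in DKO), and the tight junction gene Cldn4 (-2.12 and -2.49) fell and the polarity gene Pard6b (1.41 and 1.80) rose. Among 6 repressors of epithelial genes, Snai1 alone rose in PE, by 2.00 in WT and 2.40 in DKO. The call of Krt18 in WT was lost without WT PE replicate 2 and that of Krt19 without either WT ES array or WT PE replicate 1 (1.44 to 2.10). In DKO cells Cldn7 did not pass without any 1 of the 4 arrays (-1.56 to -1.49), nor Krt19 without DKO ES replicate 1 (1.88 to 2.56). All ES arrays were scanned on a day of their own, so that scan day cannot be told apart from any change against ES cells.

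The difference between the genotypes in this response passed for 1 of the 10 genes, where 1.36% of all genes passed. This was Grhl2, whose response was 1.79 ± 0.30 above that of WT (adjusted p = 0.00491), since its change in DKO cells was -0.55 ± 0.21. For Perp the difference of responses was -2.82 ± 0.85, for Cdh1 -2.48 ± 1.04, for Krt18 -2.24 ± 0.80, for Cldn7 -1.84 ± 0.65 and for Esrp1 -1.77 ± 0.49, with adjusted p between 0.123 and 0.481. The count depends on the fit, which takes the spread of a gene from all 10 groups, the wide Flk1(+) pairs among them. With the ES and PE arrays alone in the fit, 7 of the 10 genes passed, and the share of all genes was not counted there.

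Compared directly, DKO and WT ES cells differed in Krt8 (1.44 ± 0.30, adjusted p = 0.0193), which was 1 of 10 against 1.39% of all genes (1.12% higher and 0.269% lower). Its keratin partners had 1.77 ± 0.56 (Krt18) and 1.18 ± 0.55 (Krt19), and neither passed. The call of Krt8 was lost with the removal of any 1 of 4 arrays (1.27 to 1.60). Of the other 52 epithelial genes 0 passed in limma, with 13 at an unadjusted p under 0.05, a share that was not counted over all genes. In PE, 1 member was higher and 3 lower in DKO, where 1.96% of all genes passed (1.13% higher and 0.824% lower): Grhl2 (1.64 ± 0.21, adjusted p = 0.000263) was higher, and Perp (-3.33 ± 0.60), Cdh1 (-2.86 ± 0.74) and Esrp1 (-1.76 ± 0.35) were lower. These values were alike on both scan days of PE, for example -2.98 and -3.68 for Perp and 1.61 and 1.67 for Grhl2. The desmosome gene Dsp (-2.10), the protease inhibitor Spint2 (-1.21) and Ap1m2, a sorting adaptor of epithelial cells (-1.96), were lower too and Krt23 (1.10) was higher, 4 of the 52. Pluripotency markers were at a mean of 9.06 and 8.98 in WT PE and 6.48 and 6.11 in DKO PE, with 6 of 8 genes lower (Sox2 at -4.22, Tdgf1 at -4.35), and their part in these differences was not tested. Cdh1 (adjusted p = 0.0464) did not pass without any 1 of the 4 PE arrays (-2.97 to -2.75), Perp not without WT PE replicate 1 or DKO PE replicate 2 (range -4.01 to -2.64), and Esrp1 not without WT PE replicate 2 or either DKO PE array (range -1.88 to -1.64).

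**Figure D4:**
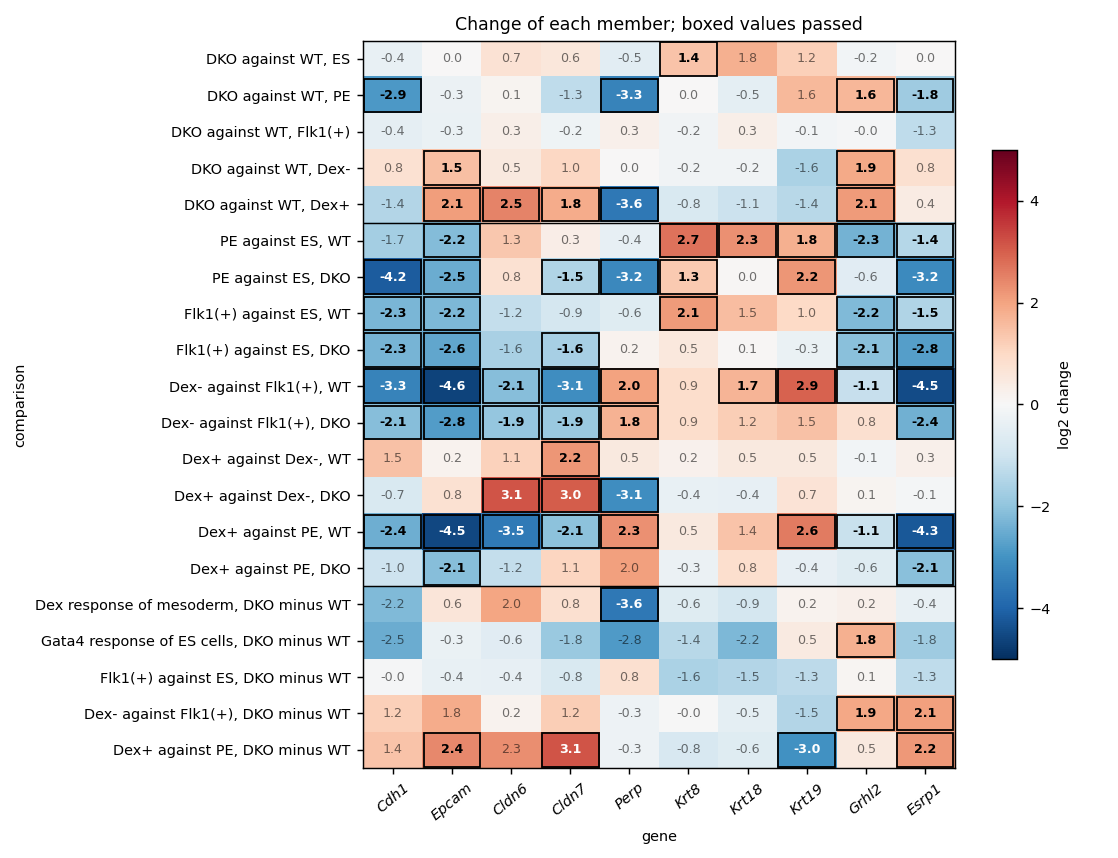
Log2 change of each of the 10 genes (horizontal axis) in the 17 comparisons and 3 added differences (vertical axis), red for higher and blue for lower in the condition or genotype named first. Boxed values passed; Krt8, Krt18 and Krt19 rose in WT PE, while Cldn6 and Cldn7 rose by 3.13 and 3.03 with Dex in DKO mesoderm.

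The second step led from ES cells to sorted Flk1(+) mesoderm. In WT cells 4 of the 10 genes fell and 1 rose, where 12.5% of all genes passed (6.15% higher and 6.30% lower). Epcam (-2.24 ± 0.39), Grhl2 (-2.20 ± 0.21), Cdh1 (-2.28 ± 0.74) and Esrp1 (-1.48 ± 0.35) fell, and Krt8 rose (2.12 ± 0.30). In DKO cells 5 fell, where 10.2% passed (4.56% higher and 5.62% lower): Esrp1 (-2.75 ± 0.35), Epcam (-2.60 ± 0.39), Cdh1 (-2.33 ± 0.74), Grhl2 (-2.09 ± 0.21) and Cldn7 (-1.65 ± 0.46). These comparisons share the ES arrays with those of PE. Cdh1 was lost without either ES array or replicate 2 of Flk1(+) in both genotypes (-3.74 to -0.81 in WT and -2.77 to -1.88 in DKO), and Cldn7 in DKO without either ES array or DKO Flk1(+) replicate 1 (-1.75 to -1.54).

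Of the other 52 epithelial genes 11 fell and 1 rose in WT and 14 fell and 1 rose in DKO. Of 9 other epithelial transcription and splicing factors 6 fell in each genotype, among them Grhl1 (-3.68 in WT and -3.61 in DKO), Klf5 (-2.26 and -1.79) and Rbm47 (-2.20 and -1.17). The repressors went the opposite way, with 6 of 6 higher in WT and 4 of 6 in DKO: Zeb2 rose by 3.32 and 3.91, Twist1 by 3.16 and 2.07, Snai1 by 2.39 and 1.57 and Zeb1 by 1.35 and 1.16. Snai2 and Twist2 passed in WT alone, yet their Flk1(+) arrays were alike in both genotypes. With the parental array first, Snai2 was at 8.94 and 6.92 (WT) against 8.49 and 6.92 (DKO). Its ES arrays were at 6.52 and 6.20 against 7.34 and 6.98. Twist2 was at 6.44 and 6.47 against 6.39 and 6.63 in Flk1(+) cells. The mesenchymal cadherins Cdh11 (7.45 and 6.64) and Cdh2 (3.58 and 3.66) rose too. The genotype differences of this step passed for 0 of the 10 genes (limma, unadjusted p under 0.05 for Krt8 and Esrp1 only), where 0.792% of all genes passed.

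The Flk1(+) groups need to be read array by array. In WT cells the parental array (replicate 1) was at least 2-fold above the array of the clone (replicate 2) for 8 of the 10 genes, where 4.84% of all genes were at least 2-fold apart. The gaps were 2.93 for Cdh1, 2.83 for Krt18, 2.57 for Krt19, 2.32 for Perp, 2.15 for Cldn6, 1.64 for Cldn7, 1.32 for Krt8 and 1.10 for Epcam, and 0.48 for Grhl2, whereas Esrp1 was the same in both (9.28 and 9.28). In the same pair 6 of 12 other tight junction genes and 6 of 12 epithelial surface and protease genes were at least 2-fold above, and none of these below. Pluripotency markers had a mean of 8.27 against 7.12 (4 of 8 at least 2-fold above), primitive endoderm markers 9.54 against 8.73 (3 of 9), and markers of sorted mesoderm 11.67 against 12.03 (0 of 5). Trophoblast markers had 8.42 against 7.67 (2 of 6) and mural markers 7.32 against 6.80 (2 of 5). Members of these lists also went the other way. Pou5f1 (8.42 against 8.82), Nanog (7.45 against 7.63) and Tdgf1 (13.04 against 13.77) were lower in the parental array. So were Gata6 (9.89 against 10.82) and Pdgfra (11.90 against 12.83). The part of other cells in this gap was not tested, and the line, the experiment, the scan day and the array lot all differed between the arrays. In DKO cells the corresponding pair was at least 2-fold apart for Esrp1 (1.59 above) and Perp (1.05 below), where 3.84% of all genes were so far apart.

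DKO and WT Flk1(+) cells differed in 0 of the 10 genes (limma, unadjusted p under 0.05 for Esrp1 only), where 0.698% of all genes passed (0.396% higher and 0.302% lower). Apart from Grhl2 and Esrp1, which were below WT in each, the differences had opposite signs in the parental lines, which shared a scan day, and in the clones, which shared another. For Cdh1 they were -1.45 in the parental lines and 0.59 in the clones, for Perp -1.41 and 1.95, for Krt18 -0.84 and 1.44 and for Krt19 -1.76 and 1.47. Without both parental arrays, which leaves 1 array a genotype and takes its spread from the other groups, 3 genes passed: Esrp1 (-2.06), Krt18 (1.44) and Krt19 (1.47). In the step from ES cells without these arrays 8 of the 10 genes passed in WT in place of 5. Among these Cldn6 (-2.28), Cldn7 (-1.69) and Perp (-1.78) were added, and Cdh1 went from -2.28 to -3.74. Without WT Flk1(+) replicate 2, the change of Cdh1 was -0.81 and did not pass, and Krt18 (2.95) and Krt19 (2.27) passed.

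**Figure D5:**
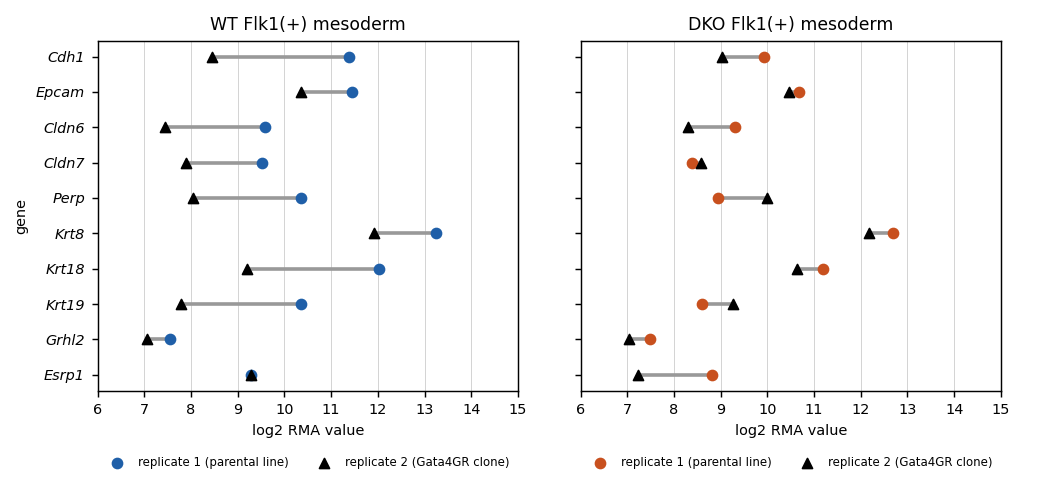
Log2 RMA values (horizontal axis) of the 10 genes (vertical axis) in the WT (left) and DKO (right) Flk1(+) arrays. Circles are the parental lines and triangles the Gata4GR clones, joined by grey lines; in WT the gap is 2.93 for Cdh1 and 0.01 for Esrp1, and in DKO the widest gap is 1.59, for Esrp1.

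In the third step sorted mesoderm was cultured without Dex. Here 9 of 10 genes passed in WT, 6 lower and 3 higher, where 15.3% of all genes passed (7.49% higher and 7.79% lower). Epcam (-4.64 ± 0.39), Esrp1 (-4.47 ± 0.35), Cdh1 (-3.32 ± 0.74), Cldn7 (-3.10 ± 0.46), Cldn6 (-2.13 ± 0.64) and Grhl2 (-1.14 ± 0.21) fell, and Krt19 (2.93 ± 0.55), Perp (2.02 ± 0.60) and Krt18 (1.71 ± 0.56) rose. In DKO cells 5 fell and 1 rose, where 16.6% passed (8.23% higher and 8.39% lower). Epcam (-2.80 ± 0.39), Esrp1 (-2.40 ± 0.35), Cdh1 (-2.13 ± 0.74), Cldn6 (-1.94 ± 0.64) and Cldn7 (-1.85 ± 0.46) fell and Perp (1.76 ± 0.60) rose. Keratin changes in DKO were 1.48 ± 0.55 (Krt19) and 1.23 ± 0.56 (Krt18) and did not pass. On the scan day that both states shared, the changes of all 10 genes in both genotypes had the sign of the pooled value, but Perp and Krt18 in WT had 0.53 and 0.16 there. This pair holds the parental array on the Flk1(+) side. Without WT Flk1(+) replicate 1, Cldn6 (-1.06) and Grhl2 (-0.90) did not pass, and without WT Flk1(+) replicate 2, Perp (0.86) and Krt18 (0.29) did not. Among the Dex- arrays of WT, the loss of replicate 1 ended the calls of Cdh1 (range -4.79 to -1.86), Cldn6 and Krt18, and that of replicate 2 those of Perp, Krt18 and Grhl2. In DKO, Cdh1 (-2.57 to -1.68), Cldn6 (-2.44 to -1.44) and Perp (1.23 to 2.28) did not pass without Flk1(+) replicate 1 or either Dex- array, nor Cldn7 without DKO Dex- replicate 1 (-2.12 to -1.58).

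The muscle actin Acta2, the classical mural marker, was at 15.09 to 15.11 in WT and 14.91 to 14.95 in DKO Dex- cells, and the mean of 5 mural genes was between 10.27 and 10.86 in these arrays. Among the 52 other epithelial genes 4 rose and 8 fell in WT and 9 rose and 3 fell in DKO. The desmosome genes Pkp2 (3.21 and 2.53) and Jup (1.36 and 1.97) rose in both genotypes, and Ap1m2 fell in both (-3.29 and -2.26). The repressor Snai2 rose by 3.95 in WT and 1.76 in DKO, whereas Twist1 fell by 2.87 in WT. In DKO cells the epidermal and intestinal keratins Krt14 (3.35) and Krt20 (2.56) and the junction gene Nectin4 (2.51) rose.

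The difference of this step between genotypes was added after these values were seen. It passed for Grhl2 (1.94 ± 0.30, adjusted p = 0.00164), which fell in WT and had 0.81 ± 0.21 in DKO, and for Esrp1 (2.06 ± 0.49, adjusted p = 0.0314), 2 of 10 genes where 2.91% of all genes passed. Without both parental arrays 4 genes passed. Esrp1 was lost without any 1 of 5 arrays (WT Flk1(+) replicate 2 and the 4 Dex- arrays, range over all left-out arrays 1.27 to 2.86). Compared directly, DKO Dex- cells were higher in Epcam (1.51 ± 0.39, adjusted p = 0.0177) and Grhl2 (1.90 ± 0.21, adjusted p = 2.45e-05), 2 of 10 where 5.84% of all genes passed (3.51% higher and 2.34% lower). The differences were 1.65 and 1.38 for Epcam and 1.83 and 1.96 for Grhl2 on the 2 scan days. For Esrp1, DKO against WT passed neither in Dex- cells (0.80 ± 0.35) nor in Flk1(+) cells (-1.26 ± 0.35). Epcam did not pass without WT Dex- replicate 1 (1.07) or DKO Dex- replicate 2 (1.21). Of 6 trophoblast markers 2 were higher and 0 lower in DKO Dex- cells, and the mean of the 6 was 6.96 and 7.25 against 5.87 and 6.04 in WT. The 6 did not move together. Tfap2c was at 7.95 and 8.43 against 5.66 and 6.07, after 9.49 to 10.78 in Flk1(+) cells, and Krt7 at 7.68 and 8.59 against 6.78 and 7.02. Gata3 went the other way (6.25 and 6.46 against 7.10 and 7.33). Cdx2 (5.65 and 5.36 against 5.40 and 5.34) and Elf5 (4.77 and 4.55 against 4.49 and 4.55) were close in both genotypes. Eomes, a factor of trophoblast and early mesendoderm, was at 9.47 and 10.11 against 5.81 and 5.93, after 13.49 to 14.00 in Flk1(+) cells. Pluripotency markers had a mean of 5.72 and 5.67 in DKO against 4.21 and 4.42 in WT Dex- cells. In the same cells Krt14, Krt20, Nectin4 and Dsg2 were higher in DKO (4 of the 52, with Cdh3 and Lsr lower). Their part in the differences of Epcam and Grhl2 was not tested.

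The fourth step asked how the set responded when mesoderm cells were given Dex. In WT cells Dex raised Cldn7 alone (2.22 ± 0.46, adjusted p = 0.0174), 1 of 10 where 1.60% of all genes passed (1.15% higher and 0.451% lower). In DKO cells it raised Cldn6 (3.13 ± 0.64, 8.77-fold, adjusted p = 0.00244) and Cldn7 (3.03 ± 0.46, 8.18-fold, adjusted p = 0.000248) and lowered Perp (-3.09 ± 0.60, 8.53-fold, adjusted p = 0.00182), 3 of 10 where 9.63% of all genes passed (4.64% higher and 4.99% lower). On the scan day shared with Dex- replicate 2 the 3 DKO changes were 3.11, 2.76 and -3.17. These 3 changes passed without any 1 of the 4 arrays, whereas that of Cldn7 in WT was lost without WT Dex- replicate 1 (1.98) or WT Dex+ replicate 2 (1.44). Epcam (0.76 ± 0.39), Cdh1 (-0.75 ± 0.74), the keratins (-0.42 to 0.67), Grhl2 (0.12 ± 0.21) and Esrp1 (-0.11 ± 0.35) did not pass in DKO cells.

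Of 12 other tight junction genes 2 rose in DKO cells, 0 fell and 10 did not pass, with a median change of 0.13 against 0.01 over all genes. Those that rose were Ocln, which encodes occludin (1.83), and its relative Marveld2 (2.82). Rbm47, an RNA-binding protein of endoderm (2.89), and Ap1m2 (1.50) rose. Krt20 (-2.72), Nectin4 (-2.60) and Krt14 (-1.83), which had risen during culture without Dex, fell. Together 4 of the 52 genes rose and 3 fell in DKO. In WT 0 of the 52 passed in limma, with 6 at an unadjusted p under 0.05, a share not counted over all genes. The repressors Snai2 (-2.69), Zeb2 (-1.48) and Twist2 (-1.28) and the mesenchymal genes Cdh11 (-2.73) and Fn1 (-3.01) fell in DKO cells. Primitive endoderm markers had a mean of 12.69 and 12.81 in DKO Dex+ cells against 10.09 and 9.92 in DKO Dex- cells and 10.59 and 10.72 in WT Dex+ cells, and mural genes of 9.34 and 8.74 against 10.27 and 10.86, with Acta2 still at 14.09 and 13.19. Visceral endoderm markers had a mean of 8.52 and 8.46 in DKO Dex+ cells against 6.41 and 6.34 in DKO Dex- cells and 5.90 and 6.03 in WT Dex+ cells. Whether the claudins rose in the same cells as the endoderm markers was not measured.

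The difference of the Dex responses passed for Perp (-3.59 ± 0.85, adjusted p = 0.0183), 1 of 10 where 5.86% of all genes passed. It was lost without WT Dex- replicate 1, DKO Dex- replicate 2 or replicate 2 of either Dex+ group (range -3.99 to -3.19). For Cldn6 the difference was 1.99 ± 0.90 (95% interval 0.06 to 3.91, adjusted p = 0.247) and for Cldn7 0.81 ± 0.65 (-0.58 to 2.21, adjusted p = 0.614), so that a larger claudin response in DKO than in WT was not established. Without WT Dex+ replicate 2, in which Cldn6 was at 8.67, the difference for Cldn6 was 3.13 and passed, and without WT Dex+ replicate 1 it was 0.84 and did not.

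Compared with WT Dex+ cells, DKO Dex+ cells were higher in 4 of the 10 genes and lower in 1, where 9.65% of all genes passed (4.82% higher and 4.83% lower). Grhl2 (2.15 ± 0.21, adjusted p = 3.68e-06), Epcam (2.10 ± 0.39, adjusted p = 0.00124), Cldn6 (2.47 ± 0.64) and Cldn7 (1.84 ± 0.46) were higher and Perp (-3.59 ± 0.60, adjusted p = 0.000587) lower. The keratins had -0.76 (Krt8), -1.08 (Krt18) and -1.40 (Krt19) and Cdh1 -1.45, and none of these passed. All 4 Dex+ arrays shared 1 scan day. Both claudins were lost without WT Dex+ replicate 1 (1.33 for Cldn6 and 1.06 for Cldn7) or DKO Dex+ replicate 2 (2.18 for Cldn6 and 1.66 for Cldn7). Ocln (2.23), Marveld2 (2.18), Rbm47 (2.96), Krt14 (1.64) and Ap1m2 (1.20) were higher and the protease St14 (-1.45) lower, and Snai2 (-4.62), Zeb2 (-1.93) and Twist2 (-1.27) were lower.

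The last comparison set Dex+ mesoderm against PE, the cells obtained from ES cells with Dex. In WT cells 8 of the 10 genes differed, where 12.3% of all genes passed (6.13% higher and 6.20% lower). Epcam (-4.54 ± 0.39), Esrp1 (-4.26 ± 0.35), Cldn6 (-3.53 ± 0.64), Cdh1 (-2.45 ± 0.74), Cldn7 (-2.07 ± 0.46) and Grhl2 (-1.12 ± 0.21) were lower, and Krt19 (2.62 ± 0.55) and Perp (2.30 ± 0.60) higher. In DKO cells 2 differed, where 4.47% passed (2.73% higher and 1.74% lower): Epcam (-2.15 ± 0.39) and Esrp1 (-2.07 ± 0.35) were lower. Cldn7 stood at 1.06 ± 0.46 there and Perp at 2.04 ± 0.60 (adjusted p = 0.0529), and neither passed. In the difference between genotypes, added after these values were seen, 4 of 10 genes passed where 6.80% of all genes passed: Cldn7 (3.13 ± 0.65), Epcam (2.40 ± 0.55), Esrp1 (2.18 ± 0.49) and Krt19 (-3.03 ± 0.77). Epcam was lost without WT Dex+ replicate 1 or DKO Dex+ replicate 2 (1.77 to 3.02), Esrp1 without WT PE replicate 2 or DKO PE replicate 1 (1.86 to 2.50), and Krt19 without WT PE replicate 2, WT Dex+ replicate 2 or any 1 of the 4 DKO arrays (-3.36 to -2.70). In WT cells Cdh1 did not pass without either PE array or WT Dex+ replicate 1 (-3.03 to -1.87), Cldn7 not without WT Dex+ replicate 1 (-1.29) and Perp not without WT PE replicate 2 or WT Dex+ replicate 2 (1.96 to 2.63). Epcam and Esrp1 were below their PE level in both genotypes, whereas Cldn6 in DKO Dex+ cells was -1.20 ± 0.64 from PE and did not pass.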

How the data were processed

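RNA from 20 samples was hybridised to Affymetrix arrays of the mouse genome, after labelling in 2 cycles from 50 ng, and the 2 arrays of a group came from independent experiments. The deposited values are log2 expression values that the authors computed by RMA with the Affy package of Bioconductor (version not given in the sources used here), which corrects background, normalizes quantiles over the arrays and summarises each probe set. They were used as deposited. Of 45101 probe sets, 64 were controls, 34945 had 1 gene symbol in the platform annotation, 932 several and 9160 none in that table, and those with 1 symbol gave 18193 genes, each represented by its brightest probe set. No array has a count or depth, and precision is limited by 2 arrays a group.

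A linear model with a mean for each of the 10 groups was fitted to all 20 arrays with limma 3.58.1 in R 4.3.3 (lmFit and eBayes, 10 residual and 4.54 prior degrees of freedom). All tests were two-sided, and p-values were adjusted over 18193 genes within each of 17 comparisons and 3 added differences. The methods name SAM, which was not run here. An exact permutation test of 2 against 2 arrays cannot go below p = 0.333. The named genes are all 10 members, up to 4 genes with the largest changes among those that passed in each list, genes that recur across comparisons, marker genes, and the 3 genes most like a member. Members and lists were chosen with earlier results of these data known. The differences between genotypes for 3 steps, and the crossed pairing, were added after values were seen. Alternatives changed the probe sets of a gene, the filter on low values, the variance model, the normalization, the arrays in the fit, scan day or replicate as a block, and the arrays left out. Files of array intensities were used for scan days and array lots alone. Promoter windows were taken from RefSeq (GRCm38.p6).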

Additional observations from a re-analysis of the deposited data

Results flagged for a closer look

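The differences between DKO and WT in the same step that passed by the interaction term of the limma fit were as follows, each as a log2 difference, DKO minus WT. The response of mesoderm to Dex differed for Perp (-3.59). The response of ES cells to Dex, called the Gata4 response below, differed for Grhl2 (1.79). The change from Flk1(+) to Dex- cells differed for Grhl2 (1.94) and Esrp1 (2.06). The distance of Dex+ cells from PE differed for Epcam (2.40), Cldn7 (3.13), Esrp1 (2.18) and Krt19 (-3.03). Those of Grhl2 rest on 1 of its 4 probe sets and that of Epcam on 1 of 2. For Esrp1, DKO against WT was -1.26 in Flk1(+) and 0.80 in Dex- cells, and neither passed. It was -1.76 in PE, which passed, and 0.42 in Dex+ cells, which did not. All arrays of cultured mesoderm had Esrp1 between 4.72 and 5.69. The last 2 groups of differences, from Flk1(+) to Dex- cells and between Dex+ cells and PE, were computed after the values of the 10 genes were seen. Groups of 2 arrays were not tested for outlying arrays.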

How the results depend on the processing

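Of 72 calls of the 10 genes over all comparisons, 47 passed under every alternative other than leaving out an array, 40 passed without each array in turn, 30 did both, and 0 reversed. With the mean of all probe sets of a gene, members that passed went from 2 to 0 for DKO against WT Dex- cells, from 1 to 0 for the Gata4 response of ES cells and from 2 to 1 for the genotype difference from Flk1(+) to Dex- cells (also 1 with every probe set tested). All calls of Grhl2 were lost under that mean, which includes 3 probe sets that did not move. A fit to the arrays of the compared groups only takes the spread from those groups alone and has fewer residual degrees of freedom. With it, the members that passed went from 1 to 3 (DKO against WT ES), 2 to 4 (DKO against WT Dex-), 9 to 4 (Dex- against Flk1(+), WT), 1 to 0 (Dex+ against Dex-, WT), 2 to 6 (Dex+ against PE, DKO), 1 to 7 (Gata4 response of ES cells) and 2 to 0 (genotype difference from Flk1(+) to Dex-). Scan day as a block gave 2 in place of 1 for DKO against WT ES and for the Gata4 response, and 0 of 49 calls with a value were lost. Without both parental arrays, members that passed went from 0 to 3 (DKO against WT Flk1(+)), 5 to 8 (Flk1(+) against ES, WT), 0 to 2 (genotype difference of that step) and 2 to 4 (genotype difference from Flk1(+) to Dex-), and Krt19 in DKO against WT Flk1(+) turned to 1.47. Krt18 in that comparison turned to -1.12 without WT Flk1(+) replicate 2, and was 1.71 without WT Flk1(+) replicate 1. The cause of these moves was not tested.

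Leaving out 1 array at a time, with the lone array of a group assumed to vary like the other groups, members that passed ranged as follows, with all arrays in parentheses. DKO against WT gave 0 to 0 (1) in ES, 1 to 2 (4) in PE, 0 to 2 (0) in Flk1(+), 1 to 2 (2) in Dex- and 3 to 5 (5) in Dex+ cells. PE against ES gave 5 to 5 (6) in WT and 5 to 6 (7) in DKO, Flk1(+) against ES 4 to 8 (5) and 3 to 4 (5), Dex- against Flk1(+) 6 to 8 (9) and 2 to 6 (6), Dex+ against Dex- 0 to 1 (1) and 3 to 3 (3), and Dex+ against PE 6 to 7 (8) and 2 to 3 (2). Genotype differences gave 0 to 1 (1) for the Dex response, 1 to 1 (1) for the Gata4 response, 0 to 3 (0) for Flk1(+) against ES, 1 to 4 (2) for Dex- against Flk1(+) and 2 to 4 (4) for Dex+ against PE.

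The labels do not say that a replicate number marks a shared experiment, and each comparison has 2 pairs. Same-numbered WT and DKO arrays of a state were scanned on the same day. Deviations of same-numbered arrays of WT and DKO correlated at 0.175 to 0.361. With the replicate block, 2 calls of Cdh1 in DKO were lost (Flk1(+) against ES and Dex- against Flk1(+)), Krt18 in DKO against WT ES and Krt19 in Dex- against Flk1(+) of DKO were gained, so that 2 members passed for DKO against WT ES in place of 1, and genes passing for DKO against WT Flk1(+) went from 127 to 211. Crossed numbers, added after seeing correlations of -0.167 and -0.262, gave 2802 genes in place of 2779 for Dex- against Flk1(+) and 2245 in place of 2244 for Dex+ against PE in WT.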
